A study of Mus musculus with 6 samples.

Results

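The 10 genes described here make up the core of MHC class I antigen presentation: the ligand chains B2m, H2-K1 and H2-D1, the peptide transport and loading genes Tap1, Tap2 and Tapbp, the immunoproteasome subunits Psmb8, Psmb9 and Psmb10, and the transactivator Nlrc5. They were taken by symbol from a table of read counts for 55401 genes. All 10 were measured, and all 10 were among the 19833 genes that passed the filter on low counts, with at least 421 counts in every library.

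The tissue was mouse aorta. By their labels, the double mutants (IL16-/-ApoE-/-) lacked interleukin-16, a cytokine secreted by lymphocytes that uses CD4 as a receptor, in addition to apolipoprotein E, which lets the liver take up remnant lipoproteins. The other group (ApoE-/-, written Apo-/- in the sample titles) lacked apolipoprotein E alone, so by the labels both groups carried the Apoe deletion. Both groups ate a high-fat diet for 24 weeks from an age of 8 weeks, and each group had 3 libraries. The comparison asks what loss of interleukin-16 does to aortic gene expression under this diet. Which part of Il16 or Apoe is deleted, the sex of the mice, and whether each numbered sample is a separate animal are unstated in the labels, so the p-values cover only differences between these samples, which may be technical.

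MHC class I molecules display short peptides from inside the cell to CD8 T cells. The proteasome cuts proteins into peptides, and cells exposed to interferon-gamma, as well as most blood-borne immune cells, replace its constitutive catalytic subunits by the immunosubunits. The TAP transporter carries peptides into the endoplasmic reticulum, where tapasin helps load them on a heavy chain bound to beta-2 microglobulin. NLRC5 drives transcription of most of these genes together. In atherosclerotic aorta, class I is known to be carried by endothelium, smooth muscle, fibroblasts and leukocytes alike.

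The sequences before 4 of the genes are shown because they hold letters searched for as parts of elements known from class I promoters. H2-K1 and H2-D1 hold the same kinds of letters, and B2m and Tap1 each hold fewer kinds. Each line gives the 250 bases before the RefSeq gene start in GRCm38.p6, on the strand of the gene. Capitals mark letters matched on either strand by 4 searches. CCAAT is the box bound by NF-Y, and TGACG is the core of a cyclic AMP response element. GAANNGAAA is a form of the core of an interferon-stimulated element, and GGGNNTTNC is part of an NF-kappa-B site. A form with a further A after the first GAA does not match the interferon search and was not searched for. The B2m line holds that form in lower case, before its NF-kappa-B letters. The windows are chr17:34000348-34000597 on the minus strand for H2-K1, chr17:35262844-35263093 on the plus strand for H2-D1, chr2:122147437-122147686 on the plus strand for B2m and chr17:34187306-34187555 on the plus strand for Tap1.
H2-K1: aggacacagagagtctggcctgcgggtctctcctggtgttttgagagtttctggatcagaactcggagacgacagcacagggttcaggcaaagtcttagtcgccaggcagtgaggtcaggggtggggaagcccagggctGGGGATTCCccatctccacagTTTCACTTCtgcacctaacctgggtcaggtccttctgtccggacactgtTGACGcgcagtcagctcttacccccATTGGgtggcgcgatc
H2-D1: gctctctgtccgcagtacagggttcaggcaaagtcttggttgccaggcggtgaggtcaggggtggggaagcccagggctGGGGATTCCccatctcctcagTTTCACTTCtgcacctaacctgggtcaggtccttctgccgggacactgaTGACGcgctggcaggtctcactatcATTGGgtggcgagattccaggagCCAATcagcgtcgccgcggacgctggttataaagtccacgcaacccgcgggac
B2m: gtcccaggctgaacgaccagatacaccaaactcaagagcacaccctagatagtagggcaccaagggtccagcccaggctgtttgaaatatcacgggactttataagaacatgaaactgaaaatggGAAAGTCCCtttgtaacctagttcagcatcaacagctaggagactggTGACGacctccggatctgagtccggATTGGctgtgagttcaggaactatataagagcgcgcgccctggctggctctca
Tap1: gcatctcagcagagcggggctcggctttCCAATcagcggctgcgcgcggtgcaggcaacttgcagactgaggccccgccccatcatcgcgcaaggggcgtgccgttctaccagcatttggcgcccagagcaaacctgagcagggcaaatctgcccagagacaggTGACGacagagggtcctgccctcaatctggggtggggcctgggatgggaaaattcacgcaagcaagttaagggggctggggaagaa

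H2-K1 and H2-D1 held all 4 sets of letters, in the same order and spacing. H2-D1 held a further CCAAT nearer its start, at bases 53 to 49. The windows are offset by 60 bases, so the matching place in H2-K1 lies past its start and was not searched. With the TGACG letters lined up, 166 of 190 bases (87.4%) were the same in both genes. In H2-K1 the NF-kappa-B letters lay at bases 111 to 103 before the start, the interferon letters at 90 to 82, TGACG at 41 to 37 and a reversed CCAAT at 16 to 12. B2m held the NF-kappa-B, TGACG and CCAAT letters, and its lower-case interferon form was not counted. Tap1 held TGACG and CCAAT, and its start lay 226 bases from that of Psmb9, which is read in the opposite direction, so both genes share most of this window. RefSeq promoters were matched for 8 of the 10 genes, without Tap2 and Nlrc5. Of the 8, 6 held CCAAT, 5 held TGACG, 2 held the interferon letters in the form searched and 3 held the NF-kappa-B letters. Among 27025 promoter windows of the same length, the shares were 34.5%, 17.9%, 6.34% and 13.0%. These matches describe the letters only, and the TGACG and CCAAT letters of Tap1 and Psmb9 are the same bases counted for both genes.

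Library totals were 42861980 to 47208779 counts in the double mutants and 65730552 to 85568269 in ApoE-/-. Libraries of the double mutants were alike, with a biological coefficient of variation of 0.209, against 0.593 in ApoE-/-. ApoE-/- 1 stood apart from the other 5 libraries by its sex-linked genes, with 474 CPM of Xist and 0.143 CPM of the Y-linked Ddx3y, against 0.497 to 6.21 CPM and 70.1 to 136 CPM. The kidney tubule list was also unequal: its 7 genes summed to 497 to 551 CPM in the double mutants and to 0.174 to 0.967 CPM in ApoE-/-. All 7 rose by edgeR, against 1.14% of all tested genes. Il16 itself was at 7.93, 12.1 and 12.2 CPM in the double mutants and at 28.3, 28.7 and 15.1 CPM in ApoE-/- (log2 fold change -1.16, SE 0.32, n = 3 each), which did not pass (adjusted p = 0.163, edgeR's quasi-likelihood test). Apoe, the gene targeted in both groups, was at 138, 183 and 137 CPM in the double mutants and at 45.0, 24.9 and 20.9 CPM in ApoE-/- (log2 fold change 2.34, SE 0.33, n = 3 each), and this rise passed (adjusted p = 0.0369, edgeR). Since the deleted parts are unstated, neither gene's count shows on its own whether a library carries its allele. CPM here means TMM-scaled counts per 1000000 counts, and calls use an adjusted p under 0.05 over all 19833 genes.

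No class I gene passed the test between the groups. Of the 10, 0 rose and 0 fell in the double mutants by edgeR's quasi-likelihood test, against 1.14% and 0.0605% of all tested genes, and 0 of the 10 had an unadjusted p under 0.05, against 15.9% of tested genes. DESeq2 called 0 of the 10, against 6.23% of tested genes higher and 2.33% lower, and limma-voom with sample weights called 0 of the 10, against 9.39% and 7.49%. The log2 fold changes ran from -0.89 to -0.06 with a median of -0.29, beside a median of -0.05 over all tested genes. The adjusted p-values ran from 0.509 to 0.965.

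The 10 genes spread widely inside the ApoE-/- group and little among the double mutants. In all 10, ApoE-/- 1 was the highest of the 6 libraries and ApoE-/- 3 the lowest, an order that 11.6% of tested genes showed. In all 10, the 3 double mutant libraries lay between those extremes, as in 37.0% of tested genes. The highest ApoE-/- library exceeded the lowest by 2.32-fold (Tapbp) to 10.9-fold (Psmb8), with a median of 6.56-fold, beside 1.91-fold over the tested genes with a count in every ApoE-/- library. In 8 of the 10 that ratio was over 4-fold, against 19.6% of those genes. Among the double mutants the same ratio was 1.04-fold to 1.19-fold, with a median of 1.08-fold for the 10 and 1.23-fold over all tested genes with a count in each double mutant library. The order of libraries was seen in these samples and then counted, so it is a description.

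**Figure D1:**
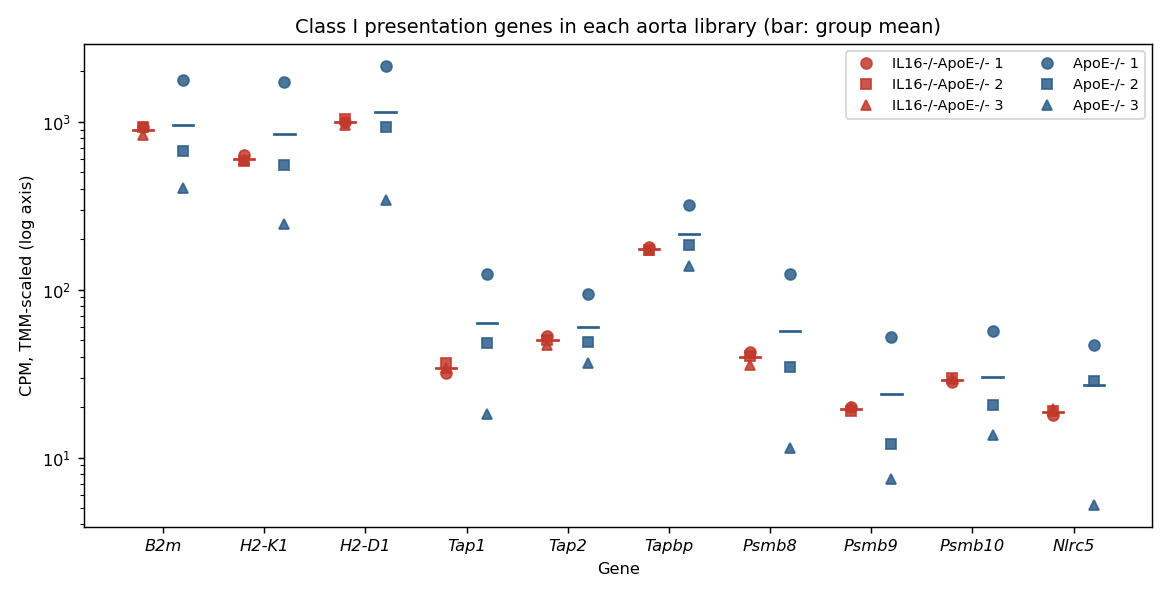
TMM-scaled CPM on a log axis for each of the 10 genes in each library, with the group mean as a bar (n = 3 each). The double mutant points lie close together in every gene, while ApoE-/- 1 lies above and ApoE-/- 3 below them in all 10.

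Per kilobase of transcript, the ligand chains were the highest of the 10. B2m (ENSMUSG00000060802, chromosome 2, 122147686 to 122153083, plus strand), the invariant light chain of class I, was at 931, 933 and 831 CPM in the double mutants and at 1788, 669 and 403 CPM in ApoE-/- 1, 2 and 3. The double mutant libraries lay above ApoE-/- 2 and 3 and below ApoE-/- 1. The means were 898.6 ± 58.6 CPM in the double mutants and 953.1 ± 735 CPM in ApoE-/- (SD, n = 3 each), a log2 fold change of -0.08 (SE 0.55, adjusted p = 0.952 by edgeR).

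H2-K1 (ENSMUSG00000061232, chromosome 17, 33996017 to 34000347, minus strand), one of the classical heavy chains that present peptide to CD8 T cells, was at 631, 586 and 590 CPM in the double mutants and at 1733, 553 and 246 CPM in ApoE-/-. H2-D1 (ENSMUSG00000073411, chromosome 17, 35262730 to 35267499, plus strand), the other classical heavy chain, was at 1002, 1034 and 959 CPM against 2154, 930 and 341 CPM. In both genes the double mutants stood just above ApoE-/- 2 and well below ApoE-/- 1. The log2 fold change was -0.49 for H2-K1 (SE 0.67, adjusted p = 0.739) and -0.19 for H2-D1 (SE 0.62, adjusted p = 0.896, edgeR, n = 3 each). These heavy chains and the H2-Q and H2-T genes are close copies, so the counting may have split reads between them, and their separate values are uncertain.

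Among the loading genes, Tap1 and Tap2 encode the subunits of the peptide transporter and Tapbp encodes tapasin, which ties it to the heavy chain. Tap1 (ENSMUSG00000037321, chromosome 17, 34187553 to 34197225, plus strand) was at 31.9, 36.5 and 34.3 CPM in the double mutants and at 124, 47.9 and 18.2 CPM in ApoE-/-. Here the double mutants lay below ApoE-/- 2 as well as ApoE-/- 1. The log2 fold change of -0.89 (SE 0.62, n = 3 each) was the largest of the 10 and had an adjusted p of 0.509 (edgeR).

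Tap2 (ENSMUSG00000024339, chromosome 17, 34203527 to 34216321, plus strand) was at 53.1, 50.4 and 46.6 CPM against 94.7, 49.0 and 36.5 CPM. Tapbp (ENSMUSG00000024308, chromosome 17, 33915899 to 33929292, plus strand) was at 179, 174 and 172 CPM in the double mutants and at 319, 184 and 138 CPM in ApoE-/-. These were the members with the narrowest range in ApoE-/-, 2.59-fold for Tap2 and 2.32-fold for Tapbp. Tap2 had a log2 fold change of -0.26 (SE 0.35, adjusted p = 0.726) and Tapbp one of -0.29 (SE 0.32, adjusted p = 0.677, edgeR).

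The median range of the immunoproteasome genes in ApoE-/- was 7.01-fold, against 6.32-fold for the ligand chains and 2.59-fold for the loading genes. Psmb8 (ENSMUSG00000024338, chromosome 17, 34197721 to 34201454, plus strand), the immunosubunit that takes the place of Psmb5, was at 42.4, 40.6 and 35.7 CPM in the double mutants and at 124, 34.7 and 11.4 CPM in ApoE-/-. The double mutant libraries lay close to ApoE-/- 2, with ApoE-/- 1 above and ApoE-/- 3 below (log2 fold change -0.52, SE 0.76, adjusted p = 0.757, edgeR).

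Psmb9 (ENSMUSG00000096727, chromosome 17, 34181987 to 34187764, minus strand), which takes the place of Psmb6, was at 19.9, 19.0 and 19.9 CPM in the double mutants and at 52.2, 12.0 and 7.44 CPM in ApoE-/-. Psmb10 (ENSMUSG00000031897, chromosome 8, 105935735 to 105938444, minus strand), which takes the place of Psmb7, was at 28.1, 29.8 and 29.6 CPM against 56.9, 20.7 and 13.6 CPM. In both genes the double mutants exceeded ApoE-/- 2 and 3 and fell short of ApoE-/- 1. The log2 fold changes were -0.29 (SE 0.69, adjusted p = 0.856) for Psmb9 and -0.06 (SE 0.51, adjusted p = 0.965) for Psmb10 (edgeR, n = 3 each).

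Tap1 and Psmb9, which share the promoter window printed above, did not keep a fixed ratio. Psmb9 was higher in the double mutants than in ApoE-/- 2, whereas Tap1 was lower in the double mutants than in ApoE-/- 2. Their annotated spans overlap at the starts, and since the strand setting of the counting is unstated, reads from that overlap may belong to either gene.

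Nlrc5 (ENSMUSG00000074151, chromosome 8, 94434356 to 94527272, plus strand), the transactivator of class I genes, was the lowest of the 10 per kilobase. It was at 17.8, 18.8 and 19.4 CPM in the double mutants and at 47.0, 28.7 and 5.23 CPM in ApoE-/-. The double mutants lay below ApoE-/- 1 and 2 and above ApoE-/- 3, a pattern shared with Tap1 and Tapbp. The log2 fold change was -0.53 (SE 0.67, adjusted p = 0.717, edgeR, n = 3 each), and the highest ApoE-/- library exceeded the lowest by 8.98-fold.

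Per kilobase of transcript the order of levels was B2m, H2-D1, H2-K1, Tapbp, Psmb8, Psmb10, Tap2, Psmb9, Tap1 and Nlrc5 in the double mutants. B2m stood at 1045 ± 68.1 CPM per kilobase, H2-D1 at 475.0 ± 17.7 and H2-K1 at 384.0 ± 15.9, all further apart than their SDs (n = 3). Tapbp followed at 63.7 ± 1.33 CPM per kilobase. Psmb8 (24.3 ± 2.13) and Psmb10 (22.2 ± 0.682) did not differ beyond their spread, nor did Tap2 (14.5 ± 0.955) and Psmb9 (14.5 ± 0.395). Tap1 stood at 12.3 ± 0.822 and Nlrc5 at 3.25 ± 0.140. In ApoE-/- the means ran from 1108 ± 855 CPM per kilobase for B2m to 4.69 ± 3.64 for Nlrc5, and the SD exceeded 50% of the mean in 9 of the 10 genes. Lengths are the median over annotated transcripts, so levels of genes with several transcript forms are approximate.

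Leaving out ApoE-/- 1 raised all 10 fold changes, and leaving out ApoE-/- 3 lowered them. Without ApoE-/- 1, all 10 were positive, from 0.05 (Tap1) to 1.01 (Psmb9) with a median of 0.62. That fit set the double mutant libraries against ApoE-/- 2 and 3 alone. In it 2 of the 10 rose in the double mutants and 0 fell, while 13.1% of all tested genes rose and 12.8% fell. The 2 were Psmb9 (log2 fold change 1.01, SE 0.23, adjusted p = 0.0275) and Psmb10 (0.77, SE 0.20, adjusted p = 0.0385). B2m came next (0.74, SE 0.24, adjusted p = 0.0652, edgeR). Without ApoE-/- 3, all 10 were negative, from -1.33 (Tap1) to -0.41 (Psmb10) with a median of -0.67, and 0 of 10 passed by edgeR, against 0.802% of all tested genes that rose and 0.0935% that fell. Of the 10, 2 had an unadjusted p under 0.05 in that fit, against 3032 of 20312 tested genes. They were Nlrc5 (-1.02, SE 0.23, adjusted p = 0.141) and Tap1 (-1.33, SE 0.38, adjusted p = 0.204, edgeR). Only the fit without ApoE-/- 1 compares libraries of the same sex pattern, and sex and the other differences of that library cannot be told apart.

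**Figure D2:**
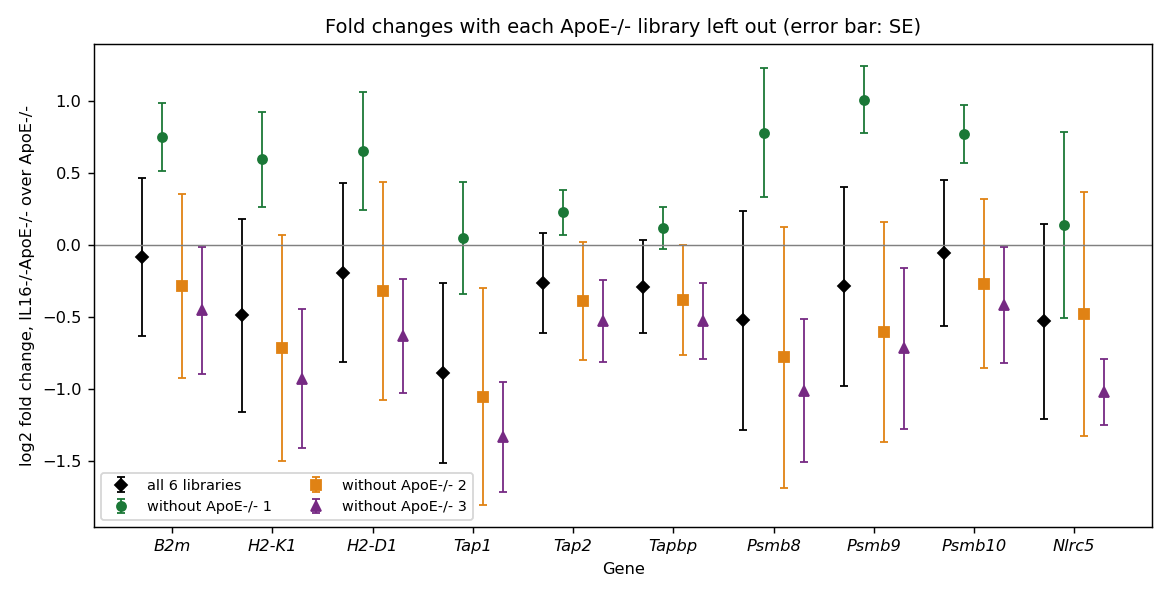
Log2 fold changes of the double mutants over ApoE-/- with their SEs, for all 6 libraries and with each ApoE-/- library left out in turn. Points without ApoE-/- 1 are above 0 in all 10 genes, and points of the other 3 fits are below 0.

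The balance of immunosubunit to constitutive subunit was read as a ratio of CPM per kilobase inside each library, which does not depend on library size. Psmb8 to Psmb5 was 0.321, 0.310 and 0.306 in the double mutants and 1.17, 0.638 and 0.133 in ApoE-/- 1, 2 and 3. Psmb9 to Psmb6 was 0.123, 0.113 and 0.142 against 0.368, 0.125 and 0.0530. Psmb10 to Psmb7 was 0.344, 0.424 and 0.377 against 0.680, 0.440 and 0.229. In all 3 pairs the double mutants lay between ApoE-/- 1 and ApoE-/- 3.

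The mean log2 ratios of Psmb8 to Psmb5 were -1.68 ± 0.04 in the double mutants and -1.11 ± 1.62 in ApoE-/- (SD, n = 3 each), a difference of -0.56 with an exact two-sided permutation p of 0.7. For Psmb9 to Psmb6 the difference was -0.10 (exact permutation p = 0.8), and for Psmb10 to Psmb7 it was -0.11 (exact permutation p = 0.8). Adjusted over the 3 ratios the exact permutation p was 0.8 for each, and the smallest p that 3 against 3 libraries allow is 0.1. Inside ApoE-/- the constitutive subunits had a median range of 1.78-fold, against 7.01-fold for the immunosubunits.

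**Figure D3:**
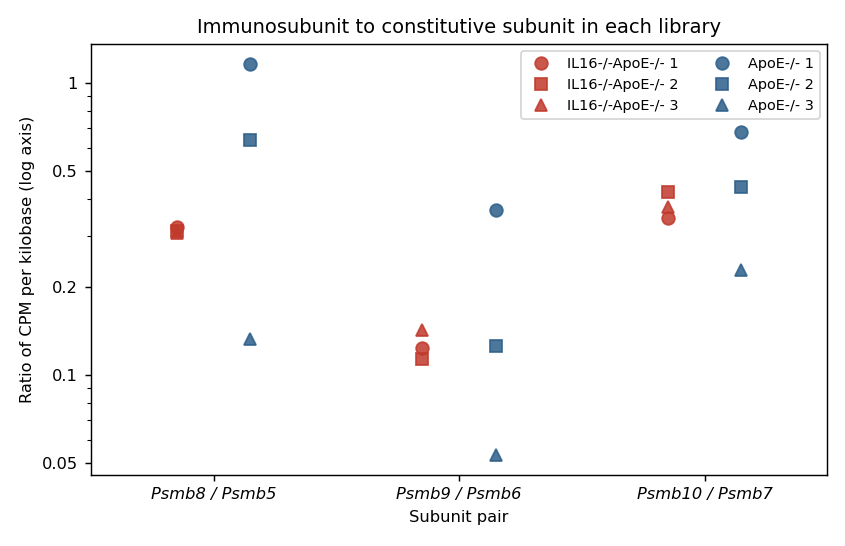
Ratio of each immunosubunit to its constitutive counterpart, in CPM per kilobase on a log axis, for each library. The double mutant ratios of Psmb8 to Psmb5 lie between 0.306 and 0.321, and those of ApoE-/- spread from 0.133 to 1.17.

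Most other class I heavy chains followed the order of the 10. Of 18 listed, 17 were in the table and 16 were tested, of which 0 rose and 0 fell by edgeR. An unadjusted p under 0.05 was found in 0 of the 16, against 15.9% of tested genes. DESeq2 called 0 of them. With sample weights, limma-voom called 1 higher, Cd1d1, which presents lipids, against 9.39% of tested genes. In 11 of the 16, ApoE-/- 1 was the highest and ApoE-/- 3 the lowest library, against 11.6% of tested genes. The H2-Q and H2-T genes among the 16 are close copies of H2-K1 and H2-D1 and may share reads with them. The median range in ApoE-/- was 5.40-fold. H2-Q7 was at 50.3, 45.0 and 48.9 CPM in the double mutants against 180, 65.0 and 16.7 CPM, and H2-T23 was at 92.8, 103 and 97.6 CPM against 203, 104 and 35.8 CPM. The class I-like genes Mr1, which presents vitamin metabolites, and Hfe, which regulates iron, had the smallest p. Mr1 ran the other way among the ApoE-/- libraries, at 35.4, 36.0 and 36.3 CPM in the double mutants against 32.1, 53.7 and 49.0 CPM (log2 fold change -0.32, SE 0.21, adjusted p = 0.480). Hfe had a log2 fold change of 0.59 (SE 0.38, adjusted p = 0.479, edgeR). Without ApoE-/- 1, 3 of the 16 rose and 1 fell, against 13.1% and 12.8% of all tested genes. Those that rose were Cd1d1 (log2 fold change 2.40, adjusted p = 0.00421), H2-Q10 (1.72, adjusted p = 0.0393) and Fcgrt, the neonatal receptor for immunoglobulin G (0.49, adjusted p = 0.0254). Mr1 fell (-0.52, adjusted p = 0.0162, edgeR). H2-Q1 had 0 counts in 3 libraries, double mutant 1 and ApoE-/- 2 and 3, and 9.94 to 22.4 CPM in the others. It is one of the close copies named above. H2-Q7, H2-T23 and H2-Q1 were picked after their values had been seen.

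Among other genes that help load or trim peptides, some of which serve other pathways too, most did not share the order. Of 11 such genes 0 rose and 0 fell by edgeR, and 1 had an unadjusted p under 0.05, against 15.9% of tested genes. DESeq2 called Thop1 lower and limma-voom called Thop1 and Lnpep lower, against 2.33% and 7.49% of tested genes. In the list, 2 had ApoE-/- 1 highest and ApoE-/- 3 lowest, Tapbpl and Ide, an order that 11.6% of tested genes showed. The median range in ApoE-/- was 1.39-fold, and that of Tapbpl was 2.98-fold. The cytosolic peptidase Thop1, which destroys peptides before they reach TAP, was at 11.5, 12.5 and 12.0 CPM in the double mutants and at 18.5, 16.8 and 19.3 CPM in ApoE-/-. The 3 double mutant values were under the 3 ApoE-/- values, and 26.4% of tested genes had groups that did not overlap, in either direction, and the gene did not pass by edgeR (log2 fold change -0.60, SE 0.16, adjusted p = 0.146, edgeR). The endosomal aminopeptidase Lnpep had a log2 fold change of -0.51 (SE 0.24, adjusted p = 0.365). Without ApoE-/- 1, 2 of the 11 fell, Thop1 and Lnpep, against 12.8% of all tested genes, and 0 rose, against 13.1%.

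Among 9 genes for proteasome activators and assembly, 0 rose and 0 fell by edgeR. Of the 9, 2 had an unadjusted p under 0.05, against 15.9% of tested genes. DESeq2 called 0 of them, and limma-voom called Psme1 and Pomp higher, against 9.39% of tested genes. The interferon-inducible activator subunits Psme1 and Psme2 had no call by edgeR. Psme1 was at 91.5, 99.6 and 97.7 CPM in the double mutants against 110, 48.7 and 50.5 CPM in ApoE-/-, and Psme2 at 49.7, 61.3 and 65.1 CPM against 83.8, 28.5 and 32.4 CPM. Pomp, the maturation factor of the proteasome, had the smallest p of the list (log2 fold change 0.71, SE 0.24, adjusted p = 0.233), followed by the nuclear activator Psme4 (-0.32, SE 0.13, adjusted p = 0.314, edgeR). Without ApoE-/- 1, Psme1, Psme2 and Pomp rose (log2 fold changes 0.96, 0.94 and 0.93, adjusted p = 0.00300, 0.00966 and 0.0184, edgeR) and Psme4 fell. These were 3 and 1 of the 9, while 13.1% of all tested genes rose and 12.8% fell in that fit. Of the 3 constitutive subunits 0 passed by edgeR or DESeq2 with all libraries in and 1 had an unadjusted p under 0.05, Psmb5 (0.62, SE 0.25, adjusted p = 0.310), which limma-voom called higher, and 2 rose without ApoE-/- 1, Psmb5 and Psmb7.

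Factors known to bind class I and class II promoters, 14 in the list, had 0 calls by edgeR and by DESeq2, with 1 at an unadjusted p under 0.05 in each. Among all 19833 tested genes, 3154 had such a p by edgeR and 4015 by DESeq2. Irf1, an interferon-induced activator of Psmb9 and Tap1, was at 45.1, 44.3 and 48.1 CPM in the double mutants and at 71.1, 50.2 and 29.4 CPM in ApoE-/- 1, 2 and 3, with an adjusted p of 0.851 (edgeR). It had the same order of libraries as the class I genes. The class II transactivator Ciita was at 16.6, 17.0 and 12.4 CPM against 28.5, 17.9 and 2.73 CPM (adjusted p = 0.961). Rfx5, which binds the X box with NLRC5, did not follow that order, at 14.4, 18.9 and 23.8 CPM against 15.1, 28.1 and 28.5 CPM (adjusted p = 0.618, edgeR). In 2 of the 14, Creb1 among them, the groups did not overlap, as in 26.4% of tested genes in either direction. Creb1 had the smallest p of the list (-0.54, SE 0.22, adjusted p = 0.295, edgeR). With limma-voom Creb1 was called lower, as were 7.49% of tested genes. It fell without ApoE-/- 1 (-0.72, adjusted p = 0.0166, edgeR), the 1 call among the 14 in that fit. Over all tested genes, that fit called 13.1% higher and 12.8% lower.

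Of 12 genes for interferons, their receptors and kinases, 11 were tested and 0 passed by edgeR or DESeq2. By edgeR 0 had an unadjusted p under 0.05, against 15.9% of tested genes. The receptor chain Ifnar2 was called higher by limma-voom, as were 9.39% of tested genes. Ifng, the interferon that induces the immunosubunits, was at 0.0922, 0.0630 and 0.396 CPM in the double mutants and at 1.05, 0.258 and 0.0497 CPM in ApoE-/- 1, 2 and 3, with an adjusted p of 0.624 (edgeR). The counts behind these values were 4, 3 and 17 in the double mutants and 88, 18 and 4 in ApoE-/-, the lowest of them close to the 3 counts that a count of 0 allows. Ifnb1 had no count in any library, which allows up to 0.0698 CPM in a double mutant library and up to 0.0430 CPM in an ApoE-/- library. The kinases Jak2 (log2 fold change -0.48, SE 0.20, adjusted p = 0.315) and Tyk2 (-0.33, SE 0.16, adjusted p = 0.372) had the smallest p. With ApoE-/- 1 left out, the receptor chains Ifnar2 (log2 fold change 1.00, adjusted p = 0.01005) and Ifngr1 (0.57, adjusted p = 0.0324) rose and Jak2 fell (-0.61, adjusted p = 0.0423, edgeR). These were 2 and 1 of the 11, against 13.1% and 12.8% of all tested genes.

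Class I is recognised by CD8 on T cells and by receptors of natural killer cells. A list of 8 genes held such receptors, the natural killer marker Klrb1c, and Pirb and Lilrb4a, receptors of other leukocytes. Pirb and Lilrb4a were the highest of the list, with means of 103 and 233 CPM in the double mutants. Of the 8, 0 passed by edgeR, DESeq2 or limma-voom. By edgeR 0 had an unadjusted p under 0.05, against 15.9% of tested genes. Without ApoE-/- 1, 0 passed, against 13.1% of all tested genes that rose and 12.8% that fell. In all 8, ApoE-/- 3 was the lowest library, as in 26.4% of tested genes. Cd8a was at 4.93, 3.63 and 5.05 CPM in the double mutants and at 7.14, 6.97 and 0.435 CPM in ApoE-/-. The inhibitory receptor Klrc1 had the smallest p, at 0.300, 0.231 and 0.279 CPM against 4.39, 1.52 and 0 CPM (log2 fold change -2.86, SE 1.59, adjusted p = 0.418, edgeR).

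Marker lists of the cell types an aorta sample can hold differed among the ApoE-/- libraries too. The 8 pan-leukocyte genes, Ptprc (CD45) among them, summed to 985, 1228 and 1034 CPM in the double mutants and to 1288, 757 and 138 CPM in ApoE-/- 1, 2 and 3. The 8 T cell genes summed to 29.7, 23.9 and 36.3 CPM against 46.7, 22.5 and 3.47 CPM, and the 7 natural killer and cytotoxic genes to 6.77, 7.16 and 5.19 CPM against 53.5, 11.3 and 2.37 CPM. The 11 macrophage and dendritic genes summed to 1485, 1901 and 1513 CPM against 1736, 930 and 270 CPM, and the 6 B cell genes to 46.2, 37.2 and 58.6 CPM against 34.9, 22.6 and 4.28 CPM. Each of these 5 lists was lowest in ApoE-/- 3. ApoE-/- 1 was the highest library for the T cell and the natural killer list and, by a narrower margin, for the pan-leukocyte list. Of the 40 genes in these lists 0 passed by edgeR and 5 had an unadjusted p under 0.05, against 15.9% of tested genes. DESeq2 called 2 of the 40 higher and 1, the granule protease Gzmb, lower, against 6.23% and 2.33% of tested genes. With limma-voom, Cd68, Fcgr1 and Flt3, macrophage and dendritic genes, were called higher, against 9.39% of tested genes. Without ApoE-/- 1, edgeR called 1 of the 8 pan-leukocyte, 4 of the 6 B cell and 1 of the 11 macrophage and dendritic genes higher, 1 of those 11 lower, and 0 of the T cell and natural killer genes. Over all tested genes, that fit called 13.1% higher and 12.8% lower. Cd3d and Ncr1 had no count in ApoE-/- 3.

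The wall and fat lists behaved differently from each other. The 6 smooth muscle genes summed to 9749, 8613 and 9455 CPM in the double mutants and to 4289, 19092 and 27423 CPM in ApoE-/-, the reverse of the class I order. The 7 endothelial genes summed to 970, 956 and 944 CPM against 839, 585 and 574 CPM, the 5 adipocyte genes to 4518, 4671 and 4331 CPM against 4477, 591 and 568 CPM, and the 6 fibroblast genes to 4693, 5323 and 4908 CPM against 4835, 5912 and 3648 CPM. By edgeR, 0 genes of these lists passed apart from the adipocyte hormone Lep, which rose. DESeq2 also called 2 endothelial genes higher, and limma-voom called 5 endothelial and all 5 adipocyte genes higher and 3 smooth muscle genes lower. Among all tested genes, edgeR called 1.14% higher, DESeq2 6.23% higher, and limma-voom 9.39% higher and 7.49% lower. In the fit without ApoE-/- 1, edgeR called 5 of the 7 endothelial and 5 of the 5 adipocyte genes higher, 6 of the 6 smooth muscle genes lower and 0 of the 6 fibroblast genes, beside the 13.1% of all tested genes called higher and 12.8% called lower in that fit. In bulk tissue, fewer cells of a type and less RNA per cell cannot be told apart. The part that these lists, the kidney genes and the sex pattern play in the class I values was not tested.

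**Figure D4:**
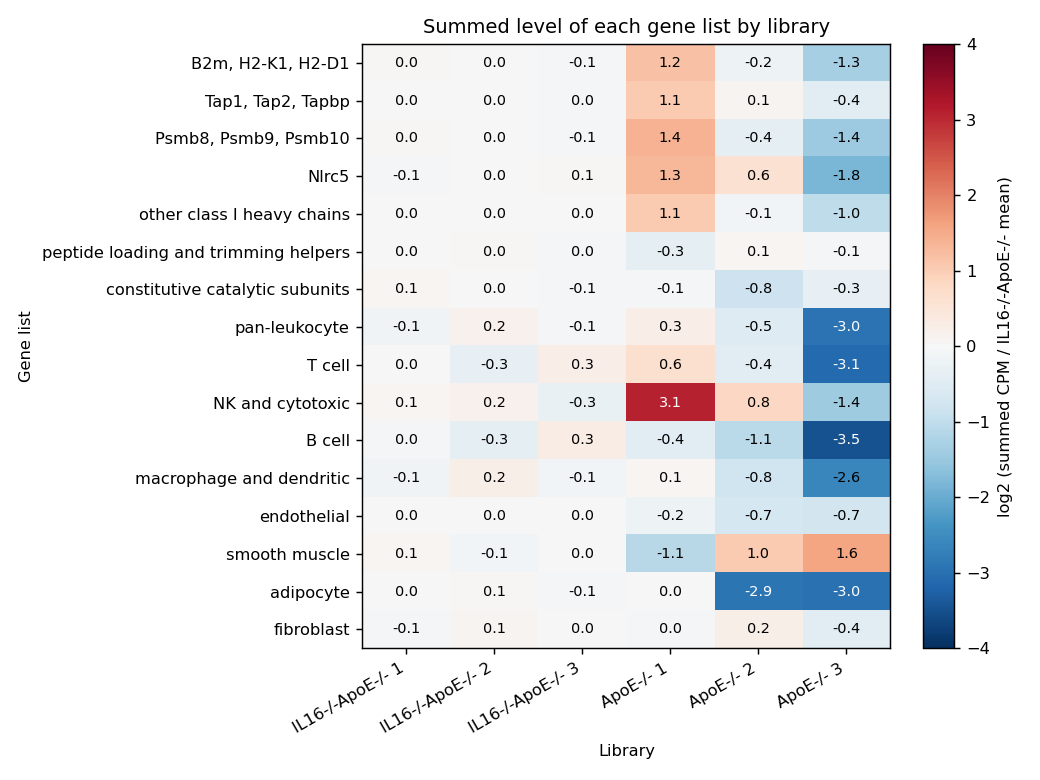
Log2 of the summed CPM of each gene list in each library over the double mutant mean of that list. The 4 class I rows at the top run from 1.1 to 1.4 in ApoE-/- 1 and from -1.8 to -0.4 in ApoE-/- 3, while the pan-leukocyte row is at 0.3 in ApoE-/- 1 and -3.0 in ApoE-/- 3 and the smooth muscle row at -1.1 and 1.6.

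Class I and leukocyte RNA did not move by the same amount. ApoE-/- 1 exceeded the double mutant mean by a median log2 value of 1.22 over the 10 class I genes and of 0.43 over the pan-leukocyte genes. ApoE-/- 3 stood at -1.23 for the class I genes and at -3.02 for the pan-leukocyte genes. For each CPM of the summed pan-leukocyte list, the 10 genes summed to 2.98, 2.38 and 2.65 CPM in the double mutants and to 5.04, 3.34 and 8.81 CPM in ApoE-/- 1, 2 and 3. The double mutants were under ApoE-/- without overlap in this sum and in 7 of the 10 genes (H2-K1, H2-D1, Tap1, Tap2, Tapbp, Psmb8 and Nlrc5), against 10.2% of all tested genes. B2m, Psmb9 and Psmb10 overlapped between the groups. Nlrc5 was the most even of the 10 on this scale inside ApoE-/-, at 0.0181, 0.0153 and 0.0188 CPM in the double mutants against 0.0365, 0.0379 and 0.0378 CPM. This scale was chosen after the values had been seen and has no test, and ApoE-/- 3 had the lowest leukocyte sum to divide by.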

How the data were processed

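Polyadenylated RNA of 6 aorta samples was sequenced, per the labels' protocols, with strand-marking libraries. The authors deposited 1 table of raw read counts per Ensembl gene, without normalization. Per the submitters' processing notes, cutadapt, HISAT2 and StringTie were used. The build, annotation, counting program and strand setting are not stated. Groups and replicate numbers come from the sample titles.

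Symbols, positions and median transcript lengths come from GENCODE M21 (GRCm38), which matched 55141 of 55401 IDs. The 260 others held at most 0.0114% of a library's counts. Promoter sequences are RefSeq's.

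Low genes were dropped with filterByExpr of edgeR (at least 10 counts, and 15 in total), and the rest were scaled by TMM and tested by edgeR's quasi-likelihood test (robust, two-sided) with Benjamini-Hochberg adjustment over all 19833 genes. The SE is the log2 fold change divided by the square root of F. Subunit ratios used an exact permutation test. Floors cover counting error only. The code was tested on simulated data. Alternatives were RLE factors, library totals, no filter, DESeq2, limma-voom with sample weights, a replicate block and leaving out each library. Software was R 4.3.3, edgeR 4.0.16, limma 3.58.1, DESeq2 1.42.0, Python 3.11.15 and matplotlib 3.10.9.

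All 10 members are named; of every other list, up to 3 genes past the threshold or else up to 2 with the smallest p, plus Irf1, Rfx5, Ciita, Ifng, Il16 and Apoe. Psme1, Psme2, Psmb7, Cd8a, H2-Q1, H2-Q7, H2-T23, Ptprc, Cd3d, Ncr1, Xist, Ddx3y and genes named as called by other tools or without ApoE-/- 1 were added after their values were seen. Tapbpl, Ide, Pirb, Lilrb4a and Klrb1c were added likewise. Some genes of these lists are not reported here. The members and lists were chosen with earlier results of these data known.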

Additional observations from a re-analysis of the deposited data

How the results depend on the processing

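The direction of the class I fold changes rested on which ApoE-/- libraries were in. RLE factors, library totals, no filter, DESeq2 and leaving out any double mutant library kept all 10 negative with 0 calls. Leaving out 1 library at a time, the log2 fold changes ran from -0.45 to 0.74 for B2m, -0.93 to 0.59 for H2-K1, -0.63 to 0.65 for H2-D1, -1.33 to 0.049 for Tap1, -0.52 to 0.23 for Tap2, -0.53 to 0.12 for Tapbp, -1.01 to 0.78 for Psmb8, -0.72 to 1.01 for Psmb9, -0.41 to 0.77 for Psmb10 and -1.02 to 0.14 for Nlrc5. Each lowest value is without ApoE-/- 3 and each highest without ApoE-/- 1. The subunit ratios moved likewise, from -1.46 to 0.11 (Psmb8 to Psmb5), -0.78 to 0.62 (Psmb9 to Psmb6) and -0.53 to 0.26 (Psmb10 to Psmb7), and the raw count ratios gave the same differences by construction. The count of the 10 called higher ran from 0 to 2. With sample weights in limma-voom, 7 turned positive: B2m (0.41), H2-K1 (0.17), H2-D1 (0.24), Tap2 (0.0097), Psmb8 (0.29), Psmb9 (0.60) and Psmb10 (0.45), none of them called. The adjusted p-values of the 10 ran from 0.0275 to 0.990 over all 12 alternatives.

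The labels state no pairing of same-numbered samples. Their deviations across genes had correlations of -0.04, -0.03 and -0.01, and those of differently numbered samples ran from -0.07 to 0.09. With 3 libraries per group, these values do not exclude a pairing. A replicate block turned B2m (0.21), H2-D1 (0.18), Psmb8 (0.11), Psmb9 (0.26) and Psmb10 (0.22) positive, with 0 of the 10 called. Over all genes, where 226 rose and 12 fell, it called 0 higher and 0 lower, with 2327 genes at an unadjusted p under 0.05. The counts were 1235 and 462 in DESeq2, 1862 and 1486 in limma-voom with sample weights, and 0 to 2651 higher and 0 to 2580 lower on leaving out 1 library, highest without ApoE-/- 1 and 0 without any 1 double mutant library (with 1920 to 2042 under 0.05 before adjustment). The cause of these shifts was not tested. Depth does not limit the 10 genes, each with at least 421 counts per library, but it limits Ifng.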
